A study of Bos grunniens and Bos grunniens x Bos taurus with 2 samples.

Results

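The chemokine and chemokine receptor genes of the yak testis were taken as all genes whose symbol was a chemokine, chemokine receptor or atypical chemokine receptor name followed by digits only. A total of 38 of the 26961 genes in the files met this rule. They were 20 ligands (13 of the CC and 7 of the CXC family), 14 typical receptors and 4 atypical receptors. The measured values played no part in the rule. Genes of the family whose symbol is missing from the annotation, or carries a letter after the digits, were outside it.

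The series holds 1 library of testis from a yak (Bos grunniens) and 1 from a cattle-yak (Bos grunniens x Bos taurus), both sampled after sexual maturity. The cattle-yak is the hybrid of cattle and yak, and its males are known to be sterile. The tissue of both was frozen, thawed and digested with enzymes before single cells were captured in droplets on the 10x Genomics platform, and polyadenylated RNA was counted by unique molecular identifiers (UMIs). The study describes the yak as a healthy adult male and does not describe the cattle-yak library. No treatment or allele is given for either animal. With 1 library per animal and 1 animal per group, no test between the groups can be made, and library, animal and cross cannot be told apart.

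Chemokines are small secreted proteins that guide the movement of leukocytes through receptors coupled to G proteins. Some are made without inflammation, such as *CXCL12* in vessel walls and *CCL21* in lymphatic vessels, and others, such as *CXCL9*, *CXCL10* and *CXCL11*, are known to be induced by interferon. Atypical receptors bind chemokines without signalling through G proteins and remove or transport them.

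The yak library held 11991 cells and the cattle-yak library 8930, with 60816600 and 43774841 UMIs. After limits on genes, UMIs and mitochondrial share, 10324 yak and 7092 cattle-yak cells were kept, with medians of 2445 and 2994 UMIs. A total of 24 barcodes occurred in both libraries. The cells were clustered in each library without the 38 genes, so that none of them defined a class. Classes were named from marker lists, and clusters that reached no name are called here by leading genes. A cluster reached no name with under 3 enriched markers of a list, with a tie between lists or with another list ahead among its leading genes. It also reached none with few UMIs and no marker among its leading genes. The labels call the cells germ cells, whereas germ-like cells made up 13.1% of the yak and 1.71% of the cattle-yak cells. T lymphocyte/natural killer-like (T/NK-like) cells made up 36.3% and 17.7% (3749 and 1257 cells). The other classes used most were endothelial-like (EC-like; 995 and 741 cells), lymphatic EC-like (705 and 304), macrophage-like (212 and 101), pericyte-like (230 and 113), myoid-like (MC-like; 653 and 844) and stromal-like (884 and 1979). A cluster with markers of both EC and pericytes (300 and 266 cells) had a median of 10619 UMIs per cell in the yak library and 9822 in the cattle-yak library. The part of cells captured together in its values was not tested. A cattle-yak cluster led by *ICAM5* and *EPHA3* (901 cells) reached no name although its stromal list summed to 4677 CPM, and it was kept out of the stromal-like class.

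Levels are given as counts summed over the cells of a class, scaled to 1000000 counts of that class (CPM), with the 95% exact Poisson interval in brackets. Such an interval covers counting error only, and not the difference between cells or animals. Levels are compared between classes for 1 gene and not between genes, and the shares that genes hold of the summed counts are shares of counts only. Fewer cells that express a gene and less RNA of it per cell cannot be told apart in a summed level.

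The 38 genes together gave 88711 counts in the kept yak cells and 33321 in the cattle-yak cells, or 2447 and 1269 CPM. Only a few genes held most of these counts. In the yak library *CCL5* made up 53.0% of them, *CXCL12* 16.6%, *CXCR4* 10.6%, *CXCL9* 7.47%, *CCL21* 6.19% and *CCL19* 1.73%. In the cattle-yak library *CCL21* made up 30.7%, *CXCL12* 23.7%, *CCL5* 21.6%, *CXCR4* 9.32%, *CXCL9* 7.84% and *CXCL10* 2.39%. A total of 18 genes reached 100 counts over both libraries, 18 lay between 1 and 99, and *CXCR5* and *CCL22* had no count in either.

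Most of the genes that could be measured were concentrated in 1 class. With at least 20 counts in the library, 21 of 24 genes in the yak were at least 4-fold higher in 1 class than in the rest of the cells, against 34.9% of all genes. In the cattle-yak 17 of 20 passed the same fold, against 29.9% of all genes. *ACKR3*, *CCL16* and *CCL14* passed it in neither library. Of the 18 genes with 100 counts, 15 had their highest class in common between the libraries. The share of all genes with a common highest class was not computed. Among these 15, the intervals of the leading and the next class overlapped for *ACKR3* in both libraries and for *ACKR1* in the yak. They also overlapped for *CXCR3*, *CXCL6*, *CCL19* and *CCL26* in the cattle-yak. There *CXCL6* and *CCL26* had only 6 and 4 counts in the leading class. Among the 3 exceptions, *CCR6* led in macrophage-like cells in the yak and in T/NK-like cells in the cattle-yak, and *CCL16* led in lymphatic EC-like and EC-like cells, each with overlapping intervals of the leading and the next class.

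**Figure D1:**
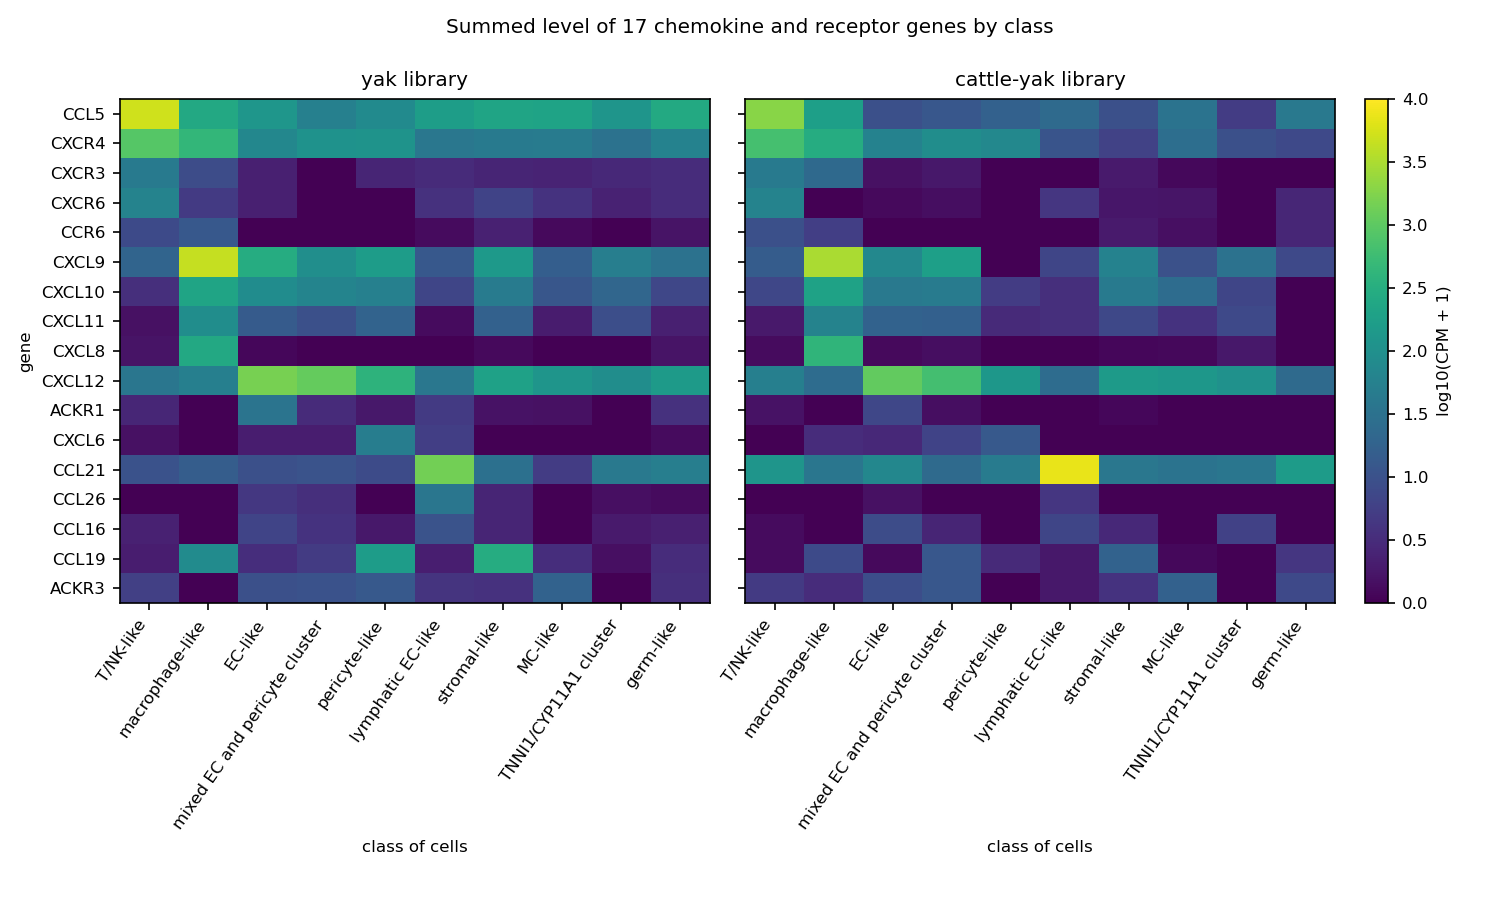
The colour gives the summed level of 17 of the genes with at least 100 counts, as log10(CPM + 1), in 10 classes of the yak (left) and the cattle-yak library (right). *CCL5* is brightest in T/NK-like cells, *CXCL9* and *CXCL8* in macrophage-like cells, *CXCL12* in EC-like cells, *CCL21* in lymphatic EC-like cells and *CCL19* in stromal-like cells.

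The lymphocyte genes came first by counts. *CCL5*, a ligand that T cells and NK cells release to attract other leukocytes, was at 5127 CPM (5078 to 5176) in the yak T/NK-like cells and at 1944 CPM (1898 to 1991) in those of the cattle-yak. The class held 89.2% and 93.9% of its counts. It had a UMI in 69.7% of yak and 45.7% of cattle-yak T/NK-like cells after each cell had been thinned to 1000 UMIs, against 5.88% and 0.703% of EC-like cells, and in 73.1% and 52.7% without thinning.

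The 3 leading receptors of lymphocytes were also highest in this class, and none of them differed 2-fold there between the libraries. *CXCR4*, the receptor of *CXCL12*, was at 890 CPM (870 to 911) and 663 CPM (636 to 690). *CXCR3*, the receptor of *CXCL9*, *CXCL10* and *CXCL11* on activated T cells, was at 43.8 CPM (39.4 to 48.6) and 42.0 CPM (35.4 to 49.3). *CXCR6*, the receptor of *CXCL16* on T cells that stay in tissues, was at 59.7 CPM (54.5 to 65.2) and 61.5 CPM (53.5 to 70.3). The intervals of *CXCR3* and *CXCR6* overlapped between the libraries, whereas those of *CXCR4* did not.

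Receptors at low levels in T/NK-like cells had overlapping intervals as well. *CCR6*, a receptor of mucosal T cells and B cells that binds *CCL20*, was at 6.97 CPM (5.28 to 9.04) in the yak and 8.34 CPM (5.58 to 12.0) in the cattle-yak. *CCR2*, known best on monocytes, had 29 and 15 counts in the class (3.55 and 4.31 CPM).

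The T/NK-like clusters differed widely in *CCL5*. In the yak library *CCL5* was at 8512 CPM in cluster 10 (911 cells), 7669 CPM in cluster 4 (336 cells) and 7256 CPM in cluster 9 (1258 cells). It was at 2696 CPM in cluster 15 (129 cells) and at 728 CPM in cluster 11 (1115 cells), where *IL7R*, a receptor of naive and memory T cells, was at 1053 CPM. Cluster 11 held the highest levels of *CXCR6* and *CCR6* in this library. *CXCR6* was at 107 CPM there, at 75.6 CPM in cluster 10 and lowest in cluster 9, with 43 counts in 1258 cells. *CCR6* was at 17.2 CPM there and at most at 9.75 CPM in the others. *CXCR3* varied least, from 35.4 to 48.7 CPM, with intervals that overlapped between all 5 clusters.

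The cattle-yak T/NK-like clusters also differed in *CCL5*. Cluster 15 (506 cells), which was high in the gamma-delta T cell gene *TRDC* (1250 CPM) and the cytotoxic granule gene *NKG7* (735 CPM), held *CCL5* at 4796 CPM. Cluster 13 (227 cells) held it at 1292 CPM, cluster 16 (131 cells) at 466 CPM and cluster 22 (53 cells) at 344 CPM. Cluster 7 (340 cells), with *IL7R* at 1257 CPM, held it at 102 CPM and held *CCR6* at 30.1 CPM. *CXCR6* was highest in cluster 13, at 142 CPM, where *CXCR3* was at 69.4 CPM. The clusters were made separately in each library, and the part of their different sizes in the level of the whole class was not tested.

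**Figure D2:**
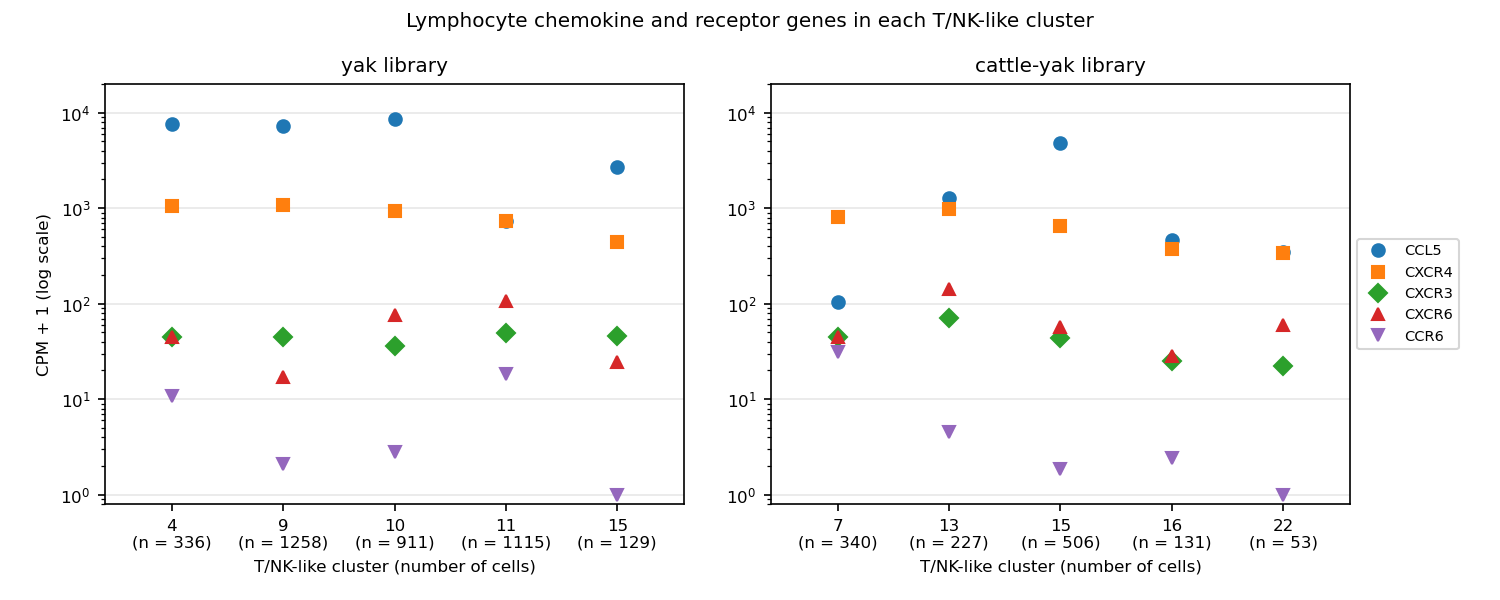
Points give CPM + 1 on a log scale for 5 lymphocyte genes in each T/NK-like cluster of the yak (left) and the cattle-yak library (right), with the number of cells under each cluster. *CCL5* spans from 728 to 8512 CPM over the yak clusters and from 102 to 4796 CPM over the cattle-yak clusters, while *CXCR3* stays between 21.2 and 69.4 CPM.

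Outside T/NK-like cells *CCL5* was set against the counts of T cell markers. The counts of *CCL5* were 5.06 times (4.95 to 5.19) those of *CD3D*, *CD3G*, *SKAP1* and *CD96* together in the yak T/NK-like cells. The ratio was 4.86 (4.05 to 5.86) in EC-like, 5.41 (4.54 to 6.48) in MC-like, 5.26 (4.41 to 6.31) in stromal-like and 3.88 (3.35 to 4.51) in germ-like cells, and it was lower in lymphatic EC-like cells (2.28, 1.96 to 2.66). In the cattle-yak library it was 3.01 in T/NK-like, 2.91 in EC-like, 2.96 in MC-like, 2.14 in stromal-like and 1.85 in germ-like cells. The levels behind these ratios were 126 CPM of *CCL5* in yak EC-like and 269 CPM in yak germ-like cells, and the part of T cell RNA in them was not tested. In cattle-yak macrophage-like cells the ratio was 19.8 (7.42 to 74.3; 79 counts of *CCL5* against 4 of the markers), above that of T/NK-like cells, and in yak macrophage-like cells it was 4.44 (3.20 to 6.29).

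*CXCR4* lay above its T/NK-like ratio in macrophage-like, EC-like or pericyte-like cells. Its ratio to the same T cell markers was 0.879 (0.852 to 0.907) in yak and 1.03 (0.967 to 1.09) in cattle-yak T/NK-like cells. It was 7.78 and 32.8 in macrophage-like, 2.71 and 19.8 in EC-like and 3.89 and 36 in pericyte-like cells (36 counts against 1 in the cattle-yak), with intervals above the T/NK-like value in each. The levels there were 446 and 296 CPM, 70.6 and 57.9 CPM, and 112 and 73.1 CPM. In the yak stromal-like (43.5 CPM) and germ-like cells (57.9 CPM) the ratio was 1.07 (0.854 to 1.35) and 0.835 (0.684 to 1.02), with intervals that held the T/NK-like ratio. The part of T cell RNA in these levels was not tested. B cell genes were present beside *CXCR4* in macrophage-like cells, where the B cell list summed to 239 CPM in the yak (7 of 7 genes detected) and 122 CPM in the cattle-yak, and their part in its level was not tested.

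The interferon-type ligands were highest in macrophage-like cells, in which the macrophage list summed to 3085 CPM in the yak and 3445 CPM in the cattle-yak, against 21.6 and 11.1 CPM in EC-like cells. *CXCL9* was at 4441 CPM (4295 to 4591) in the yak and 3117 CPM (2955 to 3286) in the cattle-yak macrophage-like cells. *CXCL10* was at 214 CPM (183 to 249) and 203 CPM (163 to 250). *CXCL11* was at 89.1 CPM (69.5 to 113) and 61.0 CPM (40.2 to 88.7). The intervals of *CXCL10* and *CXCL11* overlapped between the libraries. The class held 52.6% and 52.8% of the counts of *CXCL9*. It held only 13.5% and 11.3% of those of *CXCL10* and 24.7% and 13.3% of those of *CXCL11*. Yak EC-like cells had 479 counts of *CXCL10*, against 168 in macrophage-like cells.

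Not every macrophage-like cell carried *CXCL9*. A UMI was found in 88 of 212 yak (41.5%) and 38 of 101 cattle-yak cells (37.6%), and 8 and 5 cells held 50 percent of its counts in the class. In cells thinned to 1000 UMIs, 23.9% of the yak macrophage-like cells with *CXCL9* also had *CXCL10*, against 5.69% of those without it. In the cattle-yak library these shares were 17.2% and 4.41%. All 11 yak and all 5 cattle-yak macrophage-like cells with *CXCL11* also had *CXCL9*. The 3 genes lie next to each other in the RefSeq annotation of Bosgru_T2T1.0, with 0 protein-coding genes between neighbours.

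These ligands were also counted in vessel and stromal cells with few counts of the complement genes *C1QB* and *C1QC*, which mark macrophages. *CXCL9* was at 295 CPM (281 to 310) in yak EC-like, 163 CPM (141 to 187) in yak pericyte-like and 145 CPM (133 to 158) in yak stromal-like cells. Its counts were 2.95 times those of *C1QB* and *C1QC* in macrophage-like cells, and 147 times in EC-like (1612 counts against 11), 204 times in pericyte-like (204 against 1) and 35.7 times in stromal-like cells (535 against 15). The 26 yak EC-like cells with at least 10 counts of *CXCL9* had a median of 8438.5 UMIs, against 4223 in the class. Of these cells 24 had the endothelial gene *PECAM1*, 3 had the T cell gene *CD3D* and 1 had *C1QB*. Of 15 stromal-like cells with at least 10 counts 14 had *PDGFRA*, and all 6 such pericyte-like cells had *RGS5*. In the cattle-yak 4 of 5 such EC-like cells had *PECAM1* and 0 had *C1QB*, and 4 of 8 such stromal-like cells had *PDGFRA*. Among macrophage-like cells with at least 10 counts, 34 of 45 in the yak and 11 of 19 in the cattle-yak had *C1QB*, and 3 and 7 had *PECAM1*. The genes *PECAM1*, *PDGFRA*, *RGS5* and *C1QB* were also in the lists that named the classes. Which cells made the ligand was not tested. The ratio of *CXCL9* to the complement genes was 4.25 in yak T/NK-like cells, where the gene was at 18.7 CPM.

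Most cells with *CXCL9* lay outside the macrophage-like class, which held 88 of 725 such cells in the yak and 38 of 291 in the cattle-yak. In the yak 141 were stromal-like and 133 T/NK-like. The share of cells with *CXCL9* was lower in EC-like than in macrophage-like cells. *CXCL9* had a UMI in 91 of 995 yak EC-like cells (9.15%) and in 32 of 741 cattle-yak ones (4.32%), and 8 and 2 cells held 50 percent of its counts. Of the thinned yak EC-like cells with *CXCL9*, 20.8% also had *CXCL10*, against 1.35% of those without it. In the cattle-yak these were 30.8% and 0.716%.

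*CXCL8*, the ligand that attracts neutrophils, had the largest share of its counts in 1 class among the 18 genes with 100 counts, and that class was macrophage-like. It was at 255 CPM (221 to 293) in the yak and 418 CPM (360 to 483) in the cattle-yak cells, and the class held 95.7% and 96.4% of them. It had a UMI in 48 yak (22.6%) and 37 cattle-yak cells (36.6%) of the class. No other class with at least 50 cells exceeded 1 CPM. *CX3CR1*, the fractalkine receptor of resident macrophages and cytotoxic lymphocytes, was highest in macrophage-like cells as well, with 14 counts (17.8 CPM) in the yak and 3 (6.78 CPM) in the cattle-yak.

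*CXCL12*, a ligand that attracts and retains *CXCR4*-bearing cells, was found in most EC-like cells. It was at 1528 CPM (1495 to 1561) in yak and 1080 CPM (1047 to 1114) in cattle-yak EC-like cells. It had a UMI in 894 of 995 (89.8%) and 586 of 741 (79.1%) of these cells, with medians of 5 and 3 counts per cell. It was next highest in the cluster with EC and pericyte markers, at 1118 and 627 CPM. Pericyte-like cells held it at 389 and 130 CPM, stromal-like cells at 193 and 148 CPM, MC-like cells at 119 and 132 CPM and the cattle-yak *ICAM5*/*EPHA3* cluster at 182 CPM. Lymphatic EC-like cells were far below the other endothelial class, at 37.3 and 25.2 CPM.

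The ratio of *CXCL12* to the endothelial genes *PECAM1*, *CDH5*, *TIE1* and *ERG* set these classes apart. It was 0.786 (0.763 to 0.809) in yak EC-like cells and higher in pericyte-like (5.60, 4.45 to 7.12), stromal-like (2.52) and MC-like cells (2.29). In the cattle-yak it was 0.735 in EC-like cells, 3.56 in pericyte-like, 9.76 in stromal-like and 10.8 in MC-like cells. In germ-like cells it was 0.717 (0.637 to 0.806) in the yak and 0.737 in the cattle-yak, and in T/NK-like cells 0.472 and 0.595. The levels of *CXCL12* were 151 and 23.2 CPM in germ-like and 36.0 and 52.0 CPM in T/NK-like cells, and the part of endothelial RNA in them was not tested.

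EC-like cells fell into a pair of clusters in each library. *CXCL12* was at 2006 CPM in yak cluster 6 (233 cells, led by *BMX*, a kinase of arterial endothelium) and at 1385 CPM in cluster 8 (762 cells, with *CA4* and *VWF*). In the cattle-yak it was at 2309 CPM in cluster 10 (163 cells, with *BMX*) and at 704 CPM in cluster 3 (578 cells, with *CA4*). *ACKR1*, an atypical receptor that carries chemokines across the walls of venules, had the opposite order, at 42.9 CPM in yak cluster 8 against 3.97 CPM in cluster 6, and at 7.98 CPM in cattle-yak cluster 3 against 0 counts in cluster 10. *CXCL9* was similar in both yak clusters, at 287 and 298 CPM, and was at 13.6 CPM in cattle-yak cluster 10 and 92.2 CPM in cluster 3.

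**Figure D3:**
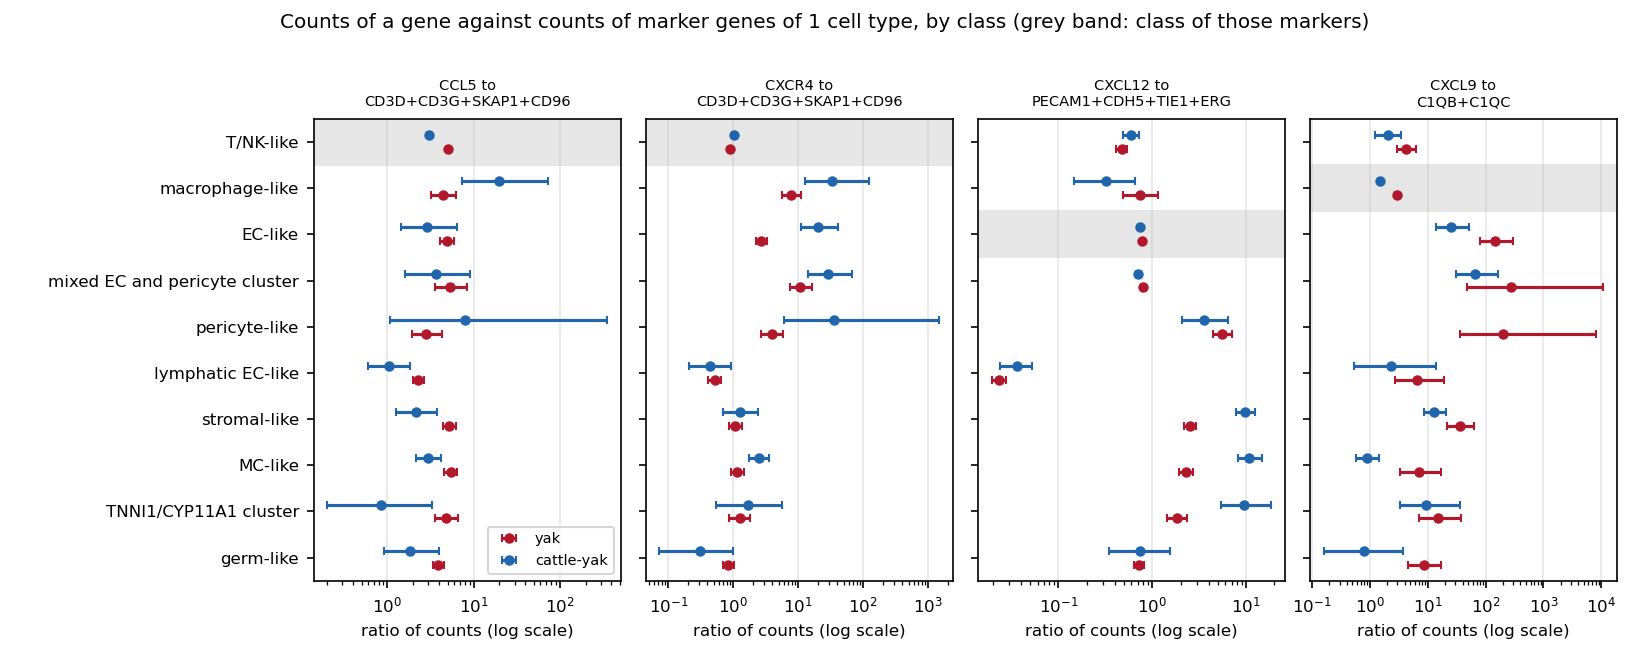
Points give the counts of *CCL5*, *CXCR4*, *CXCL12* and *CXCL9* divided by the counts of marker genes of T cells, T cells, endothelium and macrophages, on a log scale, by class and library, with 95% intervals of counting error. *CCL5* stays near its T/NK-like ratio of 5.06 (yak) and 3.01 (cattle-yak) in EC-like, MC-like and stromal-like cells, whereas *CXCL9* rises from 2.95 in yak macrophage-like to 147 in yak EC-like cells.

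*CCL21*, which guides *CCR7*-bearing dendritic cells and T cells into lymphatic vessels, was at 1424 CPM (1384 to 1465) in yak and 7411 CPM (7257 to 7567) in cattle-yak lymphatic EC-like cells. The class held 87.5% and 86.5% of its counts. It had a UMI in 62.6% of yak and 96.1% of cattle-yak cells of the class, with medians of 2 and 16 counts per cell, and in 44.4% and 84.2% at 1000 UMIs per cell. The next highest levels were 147 CPM in the yak cells that reached no name or tag and 155 CPM in the cattle-yak germ-like cells.

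*CCL21* outside lymphatic EC-like cells was set against lymphatic markers. Its counts were 0.390 times (0.377 to 0.403) those of *PROX1*, *MMRN1* and *RELN* in yak lymphatic EC-like cells, and 0.322 times in EC-like, 0.278 times in T/NK-like and 0.329 times in germ-like cells of that library. In the cattle-yak the ratio was 2.07 in lymphatic EC-like and 2.24 (1.88 to 2.69) in T/NK-like cells. It was higher in cattle-yak EC-like (4.23, 3.19 to 5.67) and germ-like cells (3.24, 2.12 to 5.10) and lower in MC-like (1.12), stromal-like (1.04) and pericyte-like cells (0.786). The part of lymphatic RNA in the levels of these classes was not tested.

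Other members of the lymphatic class were low. *CCL26*, an eosinophil ligand of CCR3, was at 36.8 CPM (30.6 to 43.8) in yak and 3.35 CPM (0.914 to 8.59) in cattle-yak lymphatic EC-like cells. *ACKR2*, a receptor of lymphatic endothelium that degrades inflammatory CC chemokines, was at 8.30 CPM (5.51 to 12.0) and 25.2 CPM (17.0 to 35.9). *CCL16* had 32 and 7 counts there (9.48 and 5.87 CPM) and 30 and 28 in EC-like cells (5.50 and 7.43 CPM).

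*CCL19*, the second ligand of *CCR7* and known from fibroblasts of lymphoid tissue, led in stromal-like cells of both libraries, with 299 CPM (282 to 317) in the yak and 17.2 CPM (13.9 to 21.1) in the cattle-yak. The yak level rested on few cells. A total of 61 of 884 stromal-like cells had a UMI, and 1 cell held 555 of the 1105 counts. In the cattle-yak 27 of 1979 cells had a UMI, and 1 cell held 46 of the 91 counts. Without the 5 cells with the most counts in each library the levels were 79.8 and 4.35 CPM. Of 16 yak stromal-like cells with at least 10 counts, 10 had *PDGFRA*, 14 *COL3A1*, 4 *CD3D* and 2 *PECAM1*. Yak pericyte-like cells held *CCL19* at 159 CPM in 11 cells, of which 7 had at least 10 counts. All 7 had *RGS5* and 5 had *COL3A1*, with a median of 10641 UMIs against 5109 in the class. The 85.3 CPM in yak macrophage-like cells came mostly from 1 cell with 55 of the 67 counts, in which *PDGFRA* and *COL3A1* but not *C1QB* were detected.

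The remaining genes with 100 counts were spread over contractile and vessel cells. *ACKR3*, which removes *CXCL12*, was highest in MC-like cells, at 17.0 CPM (13.1 to 21.6) and 16.2 CPM (12.7 to 20.4), but its interval overlapped that of the next class in both libraries. *CXCL6*, a neutrophil ligand, was highest in pericyte-like cells, with 60 counts (47.9 CPM) in the yak and 6 (12.2 CPM) in the cattle-yak. A pair of cells held 36 of the 60 counts.

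The 18 genes with 1 to 99 counts are given by their counts over both libraries. *ACKR2* had 79, *CXCL14* 76, *CCL14* 66, *CCR2* 48, *CCL11* 36, *CCR10* 29 and *CX3CR1* 27. *CCL28* had 17, *CCR7* 14, *ACKR4* 11, *CCR3* 11, *CCL20* 9, *CCR4* 9, *CCL24* 6, *CCL17* 3, *XCR1* 3, *CCL27* 2 and *CCR9* 1. *CXCL14* was concentrated in the cluster with *TNNI1* and *CYP11A1* (24.2 and 8.36 CPM), and *CCL11* lay mostly in stromal-like cells (6 and 26 counts). *CCL14* was highest in EC-like cells (4.03 and 4.25 CPM), with an interval that overlapped that of the cluster with EC and pericyte markers in both libraries. *CCR7*, the receptor of both *CCL19* and *CCL21*, had 10 counts in the yak and 4 in the cattle-yak library, and all 4 lay in T/NK-like cells. *CCR10* had 5 of its 20 yak counts in the 115 cells of a cluster with the immunoglobulin gene *IGHM* and the plasma cell gene *MZB1*.

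The study's germ cell types of the yak could be followed by their barcodes. *CCL5* was at 268 CPM in spermatogonial stem cells (SSC, 84 cells), 514 CPM in spermatogonia (SPG, 486 cells), 45.7 CPM in early spermatocytes (SPC, 72 cells), 231 CPM in late SPC (261 cells) and 641 CPM in spermatids (SPT, 224 cells). *CXCL12* was at 294, 154, 28.1, 231 and 379 CPM and *CXCR4* at 65.3, 108, 24.6, 33.6 and 188 CPM in the same order. All 3 genes were lowest in early SPC, with 13 counts of *CCL5*, 8 of *CXCL12* and 7 of *CXCR4*. The interval of *CXCR4* there overlapped those in SSC and late SPC. The types were not brought to equal UMIs per cell, and the part of depth and of RNA from other cells in this order was not tested. The ratios to T cell and endothelial markers of the whole germ-like class, given above, were at or below those of T/NK-like and EC-like cells.

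The libraries were then compared class by class, in classes with at least 50 cells in both and for genes with at least 20 counts in the pair. A gene was called at a 2-fold difference in CPM, with 1 CPM added to each level. Differences are given as log2 of cattle-yak over yak, with the interval of the ratio of the counts. The median of all genes lay between -0.32 and -0.08 in the 10 classes compared. Of 92 pairs of a gene and a class, 13 were called higher and 35 lower in the cattle-yak library, and 15 of the 23 genes tested were called in at least 1 class. Over all genes and the same classes, 3.77% of pairs were higher and 10.3% lower. The same gene was often called in several classes, so the pairs are not independent. *CCL21* was called higher in every class but stromal-like cells and the *TNNI1*/*CYP11A1* cluster, and *CCL5* was called lower in every class but macrophage-like cells. Outside lymphatic EC-like cells the part of lymphatic RNA in the calls of *CCL21* was not tested. A call compares the 2 libraries and not the crosses.

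In T/NK-like cells 1 of 12 genes was lower (background, the share of all genes, 8.29%) and 2 were higher (7.81%) in the cattle-yak library. *CCL5* differed by -1.40 (-1.44 to -1.36). Its counts were 5.06 times those of the T cell markers of this class in the yak and 3.01 times in the cattle-yak, less than a 2-fold difference. *CXCR4* (-0.43), *CXCR3* (-0.06, -0.35 to 0.22) and *CXCR6* (0.04, -0.20 to 0.28) were not called. The higher genes were *CCL21* and *CXCL10*. *CCL21* (9.30 and 119 CPM) had the ratio to lymphatic markers given above, and was at 8.44 and 61.5 CPM without the 5 highest cells of each library. *CXCL10*, with 20 and 21 counts, differed by 0.51 without such cells. The median of the 12 genes was -0.01, against -0.18 for all genes.

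In EC-like cells 5 of 12 genes were lower (background 4.68%) and 1 was higher (3.2%). *CXCL9* differed by -1.99 (-2.19 to -1.82), *CXCL10* by -1.10 (-1.39 to -0.86) and *ACKR1* by -2.30 (-3.17 to -1.84). *CXCL12* differed by -0.50 (-0.56 to -0.45) and was not called. *CXCL11* was not called either, and its direction rested on few cells: it was 0.38 with all cells and -2.23 without the 5 cells with the most counts in each library. *CXCL9* and *CXCL10* differed by -3.80 and -3.50 without such cells. The removal left 955 of 1612 yak and 44 of 278 cattle-yak counts of *CXCL9*. It thus took a larger part of the cattle-yak counts, and the wider difference does not make the call firmer. *CCL5* and *CCL26* were the other lower genes and *CCL21* the higher one.

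Macrophage-like cells had 2 of 9 genes lower (background 9.08%) and 1 higher (3.21%). None of the ligands that led in this class was called. *CXCL9* differed by -0.51 (-0.60 to -0.42), *CXCL10* by -0.07 (-0.46 to 0.30), *CXCL11* by -0.54 (-1.25 to 0.11) and *CXCL8* by 0.71 (0.42 to 1.01). The lower genes were *CCL19*, with 67 and 3 counts, and *CXCL12*, with 41 and 11 counts and a difference of -0.29 without the 5 highest cells of each library, and *CCL21* was the higher one, with 11 and 16 counts.

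Pericyte-like cells had 7 of 9 genes lower (background 9.4%) and 1 higher (2.82%), in 230 and 113 cells. *CXCL12* differed by -1.57 (-1.98 to -1.20), and had a UMI in 29.6% of yak and 10.1% of cattle-yak cells at 1000 UMIs. *CXCL9* had 204 counts in the yak and 0 in the cattle-yak. It was 26.7-fold lower against a floor of 3 counts, with an interval of counting error from 21.5-fold upward. The size of this fold rested on few cells, as 6 yak cells held 152 of the 204 counts. Without the 5 highest cells the yak level fell from 163 to 49.5 CPM. In the cluster with EC and pericyte markers *CXCL9* was at 95.4 and 178 CPM and was not called. Without the 5 highest cells of each library it was at 21.2 and 11.4 CPM there. Of the cattle-yak cells there with at least 10 counts, 5 of 6 had *RGS5* (7 of 7 in the yak). The part of the separate clustering in the pericyte-like difference was not tested. *CXCL10* (69 and 2 counts), *CXCL11* (22 and 1), *CXCL6* (60 and 6), *CCL19* (199 and 1) and *CCL5* (102 and 8) were also lower. The median of the 9 genes was -2.26, against -0.15 for all genes.

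Stromal-like cells had 6 of 11 genes lower (background 9.61%) and 1 higher (2.42%). Of the 6 lower genes, *CCL5*, *CXCR4* and *CXCR6* led in T/NK-like cells, and the part of T cell RNA in them was not tested. *CCL19* differed by -4.04 (-4.44 to -3.81), and by -3.92 without the 5 highest cells of each library. *CXCL9* differed by -1.28 (-1.50 to -1.09) and *CXCL11* by -1.25 (-2.04 to -0.74), whereas *CXCL10* was at 45.4 and 43.3 CPM and was not called. *CXCL12* differed by -0.39 and was not called. The 3 cattle-yak stromal-like clusters differed among themselves in *CCL19*, which was at 75.9 CPM in cluster 1 (347 cells), 1.44 CPM in cluster 2 and 2.84 CPM in cluster 8. *CCL11*, an eosinophil ligand, was the higher gene, with 6 and 26 counts.

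Lymphatic EC-like cells had 3 of 9 genes lower (background 11.8%) and 2 higher (2.77%). *CCL21* differed by 2.38 (2.33 to 2.43) and by 2.34 without the 5 highest cells of each library. *ACKR2* differed by 1.49 (0.81 to 2.40). *CCL26* differed by -3.12 (-5.35 to -2.06), and 4 cells held 50 percent of its 124 yak counts. *CCL5* and *CXCR4* were the other lower genes, of which *CXCR4* (-1.80) turned to 0.25 without the 10% of cells with the highest Scrublet doublet scores. Scrublet called 0 yak doublets, so removal by score was not a working doublet check in that library.

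Germ-like cells had 5 of 6 genes lower (background 29.6%) and 1 higher (5.71%). Their 1352 and 121 cells came from 4 yak clusters and 1 cattle-yak cluster, with medians of 1161 and 3780 UMIs per cell. Each of the 6 genes had fewer than 100 counts in the cattle-yak cells. The lower genes were *CCL5*, *CXCR4*, *CXCL9*, *CXCL10* and *CXCL12*, which led in T/NK-like, macrophage-like or EC-like cells. The part of depth and of RNA from those cells in these calls was not tested. *CXCL10*, with 20 counts and 0, was 1.25-fold lower against the floor of 3 counts. The interval of its ratio, yak over cattle-yak, began at 0.923 and so included equal levels. The cluster with EC and pericyte markers had 1 of 9 genes lower (3.91%) and 2 higher (2.99%). MC-like cells had 1 of 7 lower (4.66%) and 2 higher (3.15%). The *TNNI1*/*CYP11A1* cluster had 4 of 8 lower (9.92%) and 0 higher (2.12%). *CCL5* was among the lower genes in all 4 of these classes, and was lower in 9 of the 10 classes, macrophage-like cells being the exception at -0.51. Outside T/NK-like cells the part of T cell RNA in these levels was not tested. Some of the higher genes depended on few cells: *CXCL10* in MC-like cells and *CCL21* in germ-like cells turned in direction without the 5 highest cells of each library, and *CCL19* in the cluster with EC and pericyte markers then had no count in either.

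**Figure D4:**
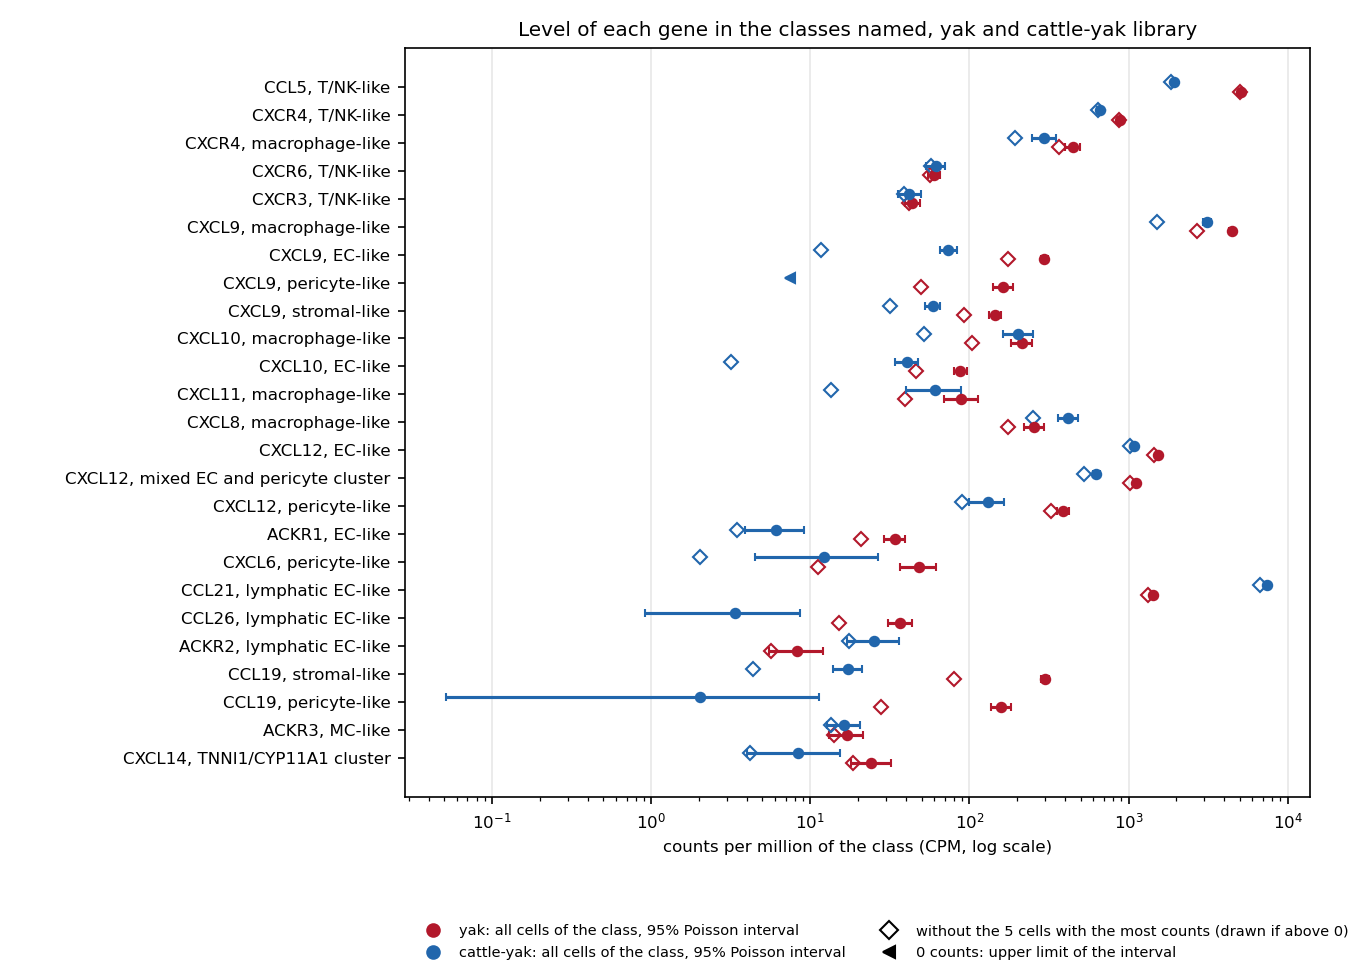
Filled points give the CPM of a gene in the class named, with the 95% Poisson interval, in the yak (red) and the cattle-yak library (blue). Open diamonds give the level without the 5 cells with the most counts. *CXCR3* and *CXCR6* overlap between the libraries, *CCL5* lies at 5127 and 1944 CPM in T/NK-like cells and *CCL21* at 1424 and 7411 CPM in lymphatic EC-like cells, and the diamonds of *CCL19* lie far left of its points.

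Genes that act downstream of the receptors were described from a list of 20, of which 19 were in the annotation. *RGS1*, which ends G protein signals of chemokine receptors, was the only one of 18 tested that was called in T/NK-like cells (lower, as were 8.29% of all genes), at 2611 and 1294 CPM (-1.01, -1.06 to -0.97). *DOCK2*, which links the receptors to the cytoskeleton of lymphocytes, was at 238 and 144 CPM there and was not called. *RGS2* was the only one of 13 called in macrophage-like cells, at 911 and 244 CPM (lower, as were 9.08% of all genes). In stromal-like cells 4 of 12 were lower (*RGS1*, *PREX1*, *DOCK2* and *ELMO1*) and 1, *GRK3*, was higher, against 9.61% and 2.42% of all genes. In EC-like cells 2 of 11 were lower (*RGS1* and *DOCK2*), against 4.68% of all genes. In germ-like cells 7 of 11 were lower and 0 higher, against 29.6% and 5.71% of all genes. *RGS1* was called lower in every class compared but macrophage-like cells. *PREX1* and *DOCK2* were highest in T/NK-like and *RGS1* in macrophage-like cells in both libraries. The part of RNA from those cells in the other classes was not tested. The T/NK-like list summed to 2141 CPM in the yak and 1340 CPM in the cattle-yak T/NK-like cells.

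Interferon gamma (*IFNG*), an inducer of *CXCL9*, *CXCL10* and *CXCL11*, was counted mostly in T/NK-like cells. It was at 50.4 CPM in the yak and 20.4 CPM in the cattle-yak (-1.26, -1.69 to -0.94). The interferon-response factor *IRF1* was at 449 and 157 CPM in stromal-like cells (-1.51, -1.64 to -1.40) and at 594 and 445 CPM in EC-like cells, where it was not called. Both genes came from a list of 5 inducers, of which 4 were in the annotation. Of these, 1 of 3 tested was lower in T/NK-like cells (8.29% of all genes) and 0 of 3 in macrophage-like cells (9.08%). In stromal-like and germ-like cells the only one tested, *IRF1*, was lower (9.61% and 29.6% of all genes). Of 12 measured early stress genes none was called in T/NK-like or pericyte-like cells, 1 was lower in EC-like, 4 in stromal-like and 11 in germ-like cells, against 4.68%, 9.61% and 29.6% of all genes.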

How the data were processed

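The authors deposited UMI counts per gene and cell barcode for each library, whole numbers without normalization. The file headers name Cell Ranger 5.0.0 and the submitters' processing notes 2.1.1. The paper maps reads to BosGru3.0 and describes the yak only. Barcodes are those called as cells.

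Cells within 2 SD of the mean genes and UMIs of their library and under 30% mitochondrial counts were kept. Without the 38 genes and mitochondrial genes, 2000 variable genes, 30 components and 15 neighbours were used for Leiden clustering at resolution 1 (Python 3.11.15, scanpy 1.11.5, igraph 0.11.9). Classes needed 3 enriched markers (log2 ratio of at least 1, a UMI in 10% of cells), and tags of unnamed clusters were set after their leading genes had been seen. Scrublet called 0 yak doublets, so it had not worked there, and 251 cattle-yak cells (2.81%); none was removed. A pair of genes that the study's gene table describes as rRNA held 5.99% and 1.11% of yak UMIs and 10.8% and 1.91% of cattle-yak UMIs.

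Levels were compared without tests, by fixed folds, with exact Poisson, binomial and conditional intervals at 95%. Genes with 100 counts in all were named with values, apart from an item that is not reported here. The ratio rule was tested on simulated data. The members and lists were chosen with earlier results of these data known. RefSeq gave a symbol match for 35 of the 38 genes and their order; no sequence or coordinate was used.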

Additional observations from a re-analysis of the deposited data

Results flagged for a closer look

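For 2 genes the libraries differed in opposite directions in different classes (log2 of cattle-yak over yak). The differences between classes were not tested. *CCL19* was lower in the cattle-yak library in stromal-like (-4.04), pericyte-like (-5.72) and macrophage-like cells (-3.47) and higher in the cluster with EC and pericyte markers (1.29). In that cluster 1 cell held 23 of the 28 cattle-yak counts, and no count was left in either library without the 5 highest cells. *CXCL10* was lower in EC-like (-1.10) and pericyte-like cells (-3.47) and in the *TNNI1*/*CYP11A1* cluster (-1.61), and higher in MC-like (1.15) and T/NK-like cells (1.03). In MC-like cells 2 cells held 104 of the 112 cattle-yak counts, and 2 held 35 of the 42 yak counts.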

How the results depend on the processing

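No paired analysis was possible because each group is 1 library, and for the same reason no replicate could be left out. The 48 pairs of gene and class called between the libraries became 29 when 100 summed counts were asked for, and lay between 39 and 60 under the other alternatives. Of the 48, 33 were called again in the same direction without the 5 highest cells of each class, an alternative chosen after seeing the data, and 38 without the 10% highest Scrublet scores. Because Scrublet called 0 yak doublets, its scores may not mark doublets in that library. The genes 4-fold higher in 1 class fell from 21 to 13 in the yak with 100 summed counts, and from 17 to 11 in the cattle-yak with 100 summed counts or with 5 CPM added. Asking for 100 summed counts also leaves fewer genes and pairs that can be called, so these numbers do not show a lower share. The share of all genes was not computed at these settings. Shares of cells with a UMI of at least 10% numbered 17 in the yak and 13 in the cattle-yak, 11 and 8 at 500 UMIs per cell and 36 and 29 without thinning. Of the 48 called pairs, 6 values changed sign under an alternative. *CXCL10* in MC-like cells was -0.26 without the highest Scrublet scores and -0.081 without the 5 highest cells. *CCL21* in germ-like cells was -0.39 without the 5 highest cells and in the cluster with EC and pericyte markers -0.35 with every cell weighted equally. *CXCR4* in lymphatic EC-like cells was 0.25 without the highest Scrublet scores. *CCL19* in the cluster with EC and pericyte markers was -0.44 without limits on cells. Of 477 values under alternatives, 393 kept direction and lay within the interval of counting error of the main ratio. Another 78 lay outside it without a change of sign. This interval is wide at low counts, so a value within it need not have kept its size. *CXCL9* in pericyte-like cells went from -7.36 to -5.66 without the 5 highest cells. It stayed within its interval, which ran from 21.5-fold lower upward. The causes of the changes were not tested.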

Other observations

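A gene without a symbol, ENSBGRG00000010946, lay outside the rule and was singled out after its values had been seen. The study's gene table names it as a C-C motif chemokine. It had 48711 counts in the yak and 9809 in the cattle-yak library. It was at 4954 CPM in yak and 2123 CPM in cattle-yak T/NK-like cells, and at 3974 and 4453 CPM in macrophage-like cells. Unlike *CCL5*, it was thus led by T/NK-like cells in the yak and by macrophage-like cells in the cattle-yak.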
